A study of Mus musculus with 6 samples.

Results

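The genes described here are 38 mouse genes of the JAK-STAT pathway and of the interferon regulatory factor (IRF) family, out of 19943 genes measured. They were selected by gene symbol, with earlier results of these data known. The rule took the JAK kinases, Tyk2 and the STAT, SOCS, PIAS, PIM and IRF genes by name. It also took Cish and the phosphatase genes Ptpn1, Ptpn2 and Ptpn6. The name pattern for the IRF genes also takes in Irf2bp1, Irf2bp2 and Irf2bpl, which encode proteins that bind IRF2 or resemble such proteins and are no IRFs themselves. The 38 genes had 44 probe sets, and a gene with several was represented by their mean. A further probe set (1) was annotated to Jak3 together with another gene and was left out, so Jak3 is not analysed here.

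Mouse natural killer (NK) cells, the innate lymphocytes known for killing virus-infected and tumour cells, gave the RNA that was hybridised to 6 Affymetrix arrays. For 3 arrays NK1.1 isolated cells were cultured overnight with 300 IU of IL-2 plus 25 ng/ml of IL-18, and live NK1.1 positive, CD3 negative cells that were CD11b negative and c-kit positive were sorted (IL-18 generated cells). For the other 3, live NK1.1 positive, CD3 negative cells that were CD11b positive and c-kit negative were sorted (unstimulated cells), and the sources used here do not say if these cells saw culture or IL-2. Stimulus, IL-2, culture and sort gate therefore cannot be told apart. For the mice, no strain, age or sex is stated in those sources. Preparations were independent, per the design text, and their number limits the precision.

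Cytokines of this pathway bind receptors that carry JAK kinases. The JAKs phosphorylate STAT factors, which pair, enter the nucleus and switch on genes, among them CIS (Cish), SOCS1 and the PIM kinases. CIS and SOCS proteins then bind the receptor or the JAK and dampen the signal, tyrosine phosphatases remove the phosphate, and PIAS proteins restrain STATs in the nucleus. In NK cells IL-2 and IL-15 signal through JAK1, JAK3 and STAT5, while the IL-18 receptor signals through MyD88 and carries no JAK. The IRFs are transcription factors of the interferon response, and IRF9 joins STAT2 in the complex that type I interferon activates.

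Values are log2 and centred: each is a difference from the 6-array median of its probe set, not an expression level, and the values of different genes cannot be set against each other as levels. A change is the mean of the IL-18 generated cells minus that of the unstimulated cells, given with its standard error (SE) or its 95% interval from limma (n = 3 arrays per group throughout). A gene is said to have risen or fallen at a limma adjusted p (Benjamini-Hochberg over all 19943 genes) below 0.05. Where the groups do not overlap, the centring sets the middle pair of arrays at equal distances from 0.

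Of the 38 genes, 9 rose and 14 fell, and 15 did not pass the test. This makes 60.5% of them called, where 36.4% of all genes tested were called. Over all genes 19.7% rose and 16.7% fell, against 23.7% and 36.8% of the 38. With a change of at least 1 (2-fold) as well, 3 rose and 0 fell, where 3.62% and 3.24% of all genes did. The 3 are Cish, Socs1 and Pim2. The groups did not overlap for 24 of the 38 genes (63.2%), and for 48.6% of all genes. The median change of the 38 was 0.02 and their median absolute change 0.50, beside -0.06 and 0.18 over all genes.

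**Figure D1:**
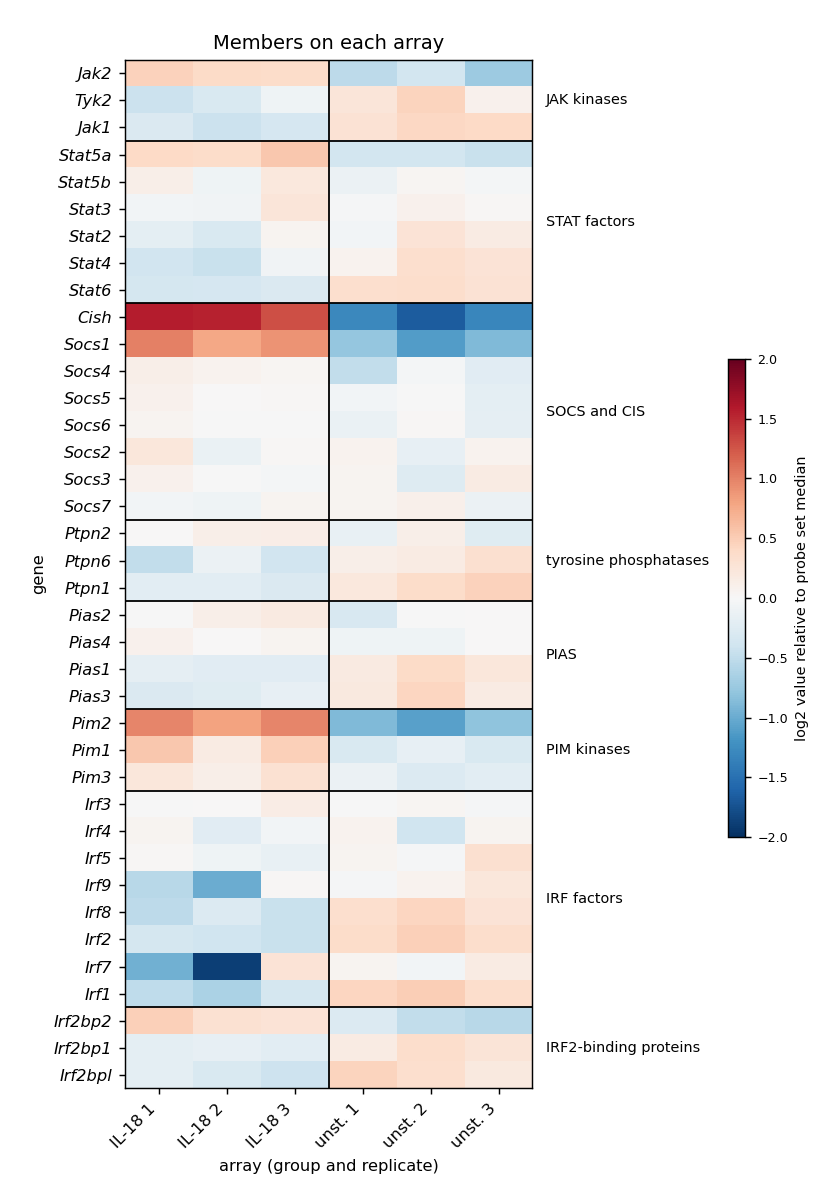
Heat map of the 38 genes (rows, by family) on the 6 arrays (columns), coloured by the log2 value relative to the probe set's median. Cish, Socs1 and Pim2 are red on all 3 IL-18 arrays and blue on all 3 unstimulated arrays, and Irf7 ranges from -1.88 to 0.28 within the IL-18 arrays.

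The JAK kinases moved in opposite directions. Jak2, which serves the receptors of GM-CSF, interferon gamma and IL-12, rose, while Jak1, the partner of JAK3 at the IL-2 receptor, and Tyk2, which serves IL-12 and type I interferon, fell. Jak2 stood at 0.46, 0.39 and 0.36 in replicates 1, 2 and 3 of the IL-18 generated cells and at -0.53, -0.36 and -0.72 in the unstimulated cells. All 3 IL-18 arrays lay above all unstimulated arrays, and the change of 0.94 ± 0.10 corresponds to 1.92-fold (limma adjusted p 2.69e-05). Jak1 was the mirror image, between -0.43 and -0.29 in the IL-18 generated cells and between 0.29 and 0.41 in the unstimulated cells, a change of -0.72 ± 0.08 (limma adjusted p 3.3e-05). Tyk2 fell with -0.53 ± 0.11, again without overlap.

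Among the chains of receptors that use JAKs, more genes fell than rose. Of 32 listed, 30 were measured, of which 15 fell and 5 rose (median change -0.27), while 10 did not pass. This makes 50% lower and 16.7% higher, where 16.7% of all genes fell and 19.7% rose. Il2ra, the alpha chain that gives the IL-2 receptor its high affinity, had the largest increase (5.32 ± 0.11). Its signalling partner Il2rb fell by 0.40 on the log2 scale, and Il12rb1, a chain of the IL-12 and IL-23 receptors, rose by 1.21 ± 0.16. The largest decreases were those of Csf2rb, the beta chain shared by the GM-CSF, IL-3 and IL-5 receptors, with -3.51 ± 0.29, and of Il13ra1, a chain of the IL-13 receptor, with -3.05 ± 0.18. Csf2rb has a near-identical neighbour, Csf2rb2, and probes may read both. Of the receptors named above with Jak2, other chains fell as well. They were Ifngr2 (-3.04) and Ifngr1 (-0.33) for interferon gamma, Csf2ra (-1.27) for GM-CSF and Il12rb2 (-0.41) for IL-12. Only Il12rb1 rose among the chains of these receptors.

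Both Csf2rb and Il13ra1 are also genes of myeloid cells, and markers of such cells differed between the groups. All 13 measured monocyte and macrophage markers of 15 listed fell (median -3.14), and the mean of the list ran from -1.50 to -1.41 on the IL-18 arrays and from 1.37 to 1.89 on the unstimulated arrays. All 12 neutrophil markers fell too (median -2.11, list means from -1.06 to -0.94 and from 0.95 to 2.06). The largest decreases were Lyz2 at -7.16 and Cybb at -6.15 among monocyte markers, and Ngp at -5.66 and Cxcr2 at -3.65 among neutrophil markers. Of 11 B cell markers 9 fell and 0 rose (median -0.42), led by Bank1 at -1.31 and Cd22 at -1.18. The count of B cell markers that fell was 5 without IL-18 replicate 3, 5 without unstimulated replicate 1 and 5 with array medians set to 0. Of 13 dendritic cell markers 7 fell and 3 rose (median -0.38), and of 12 T cell markers 4 rose and 2 fell. Over all genes tested 16.7% fell and 19.7% rose. Cd209a (-2.93) and Itgax (-2.35) led the decreases of the dendritic cell list and Batf3 (0.93) and Bst2 (0.52) its increases. In the T cell list Cd3g (1.60) and Cd3e (1.26) rose most, and Lat (-1.33) and Foxp3 (-0.28, limma adjusted p 0.0179) fell. Foxp3 did not pass without IL-18 replicate 1, 2 or 3 (adjusted p 0.0537, 0.0549 and 0.0501) or unstimulated replicate 1 or 3 (0.0502 and 0.068). The values hold no level, so whether any marker was near background cannot be read from them. Both groups were sorted for live NK1.1 positive, CD3 negative cells, with opposite CD11b and c-kit gates. How many cells of these other types remained was not measured here. Their part in the changes below was not tested, and in such bulk samples fewer cells of a type and less RNA per cell cannot be told apart.

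The labels were checked on the genes of the sort. Kit (c-kit) rose by 2.79 ± 0.13, and Itgam (CD11b) fell with -5.32 ± 0.11, the directions in which the gates were set. Of 12 NK cell markers all 12 fell, from -0.40 for Il2rb to -2.17 for the perforin gene Prf1, with Klrb1c (the NK1.1 antigen) at -2.03. Of all genes tested, 16.7% fell.

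Of the 6 STAT genes measured, Stat5a rose, Stat6 and Stat4 fell, and Stat2, Stat3 and Stat5b did not pass. This makes 16.7% higher and 33.3% lower, where 19.7% of all genes rose and 16.7% fell. Stat5a, the factor of IL-2, IL-15 and GM-CSF signals, stood at 0.40, 0.37 and 0.54 in the IL-18 generated cells against -0.37, -0.37 and -0.44 in the unstimulated cells. The groups were well apart and the arrays within each close together, and the change of 0.83 ± 0.08 is 1.77-fold (limma adjusted p 1.41e-05). Its neighbour and close relative Stat5b changed by 0.12 with a 95% interval of -0.08 to 0.33, beside 0.65 to 1.00 for Stat5a. The pair are similar in sequence, and whether probes of Stat5a also read Stat5b was not tested. The difference between the pair was not tested.

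Stat6, which carries the IL-4 signal, fell with -0.65 ± 0.07, its values lying between -0.35 and -0.29 on the IL-18 arrays and between 0.29 and 0.35 on the unstimulated arrays. Stat4, which carries the IL-12 signal towards interferon gamma in NK cells, fell with -0.51 ± 0.11 (limma adjusted p 0.0042). For Stat4 the IL-18 array closest to the unstimulated ones was replicate 3, at -0.07 beside -0.38 and -0.44 in replicates 1 and 2, while the unstimulated arrays stood at 0.07, 0.33 and 0.27. Stat3, which serves IL-6, IL-10 and IL-21, changed by 0.02 (95% interval -0.20 to 0.23). Stat2 is described with the interferon genes.

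The feedback inhibitors included the gene with the largest change of all 38, Cish. Of 8 measured, 3 rose (Cish, Socs1 and Socs4), 0 fell and 5 did not pass. This makes 37.5% called, near the 36.4% of all genes, of which 19.7% rose and 16.7% fell. Cish stood at 1.57, 1.54 and 1.29 on the IL-18 arrays and at -1.29, -1.67 and -1.30 on the unstimulated arrays. Its change of 2.89 ± 0.12 is 7.40-fold (limma adjusted p 5.86e-08). CIS, its product, is induced by STAT5 and is known as a brake on IL-15 signalling in NK cells. Socs1, whose product blocks JAK activity directly, stood at 1.00, 0.78 and 0.90 against -0.78, -1.11 and -0.88, a change of 1.82 ± 0.10 or 3.53-fold (limma adjusted p 3.73e-07). For both genes the groups were far apart.

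The other SOCS genes lay close to 0. Socs4 rose by 0.32 ± 0.11, with values of 0.11, 0.07 and 0.04 on the IL-18 arrays against -0.50, -0.04 and -0.22. Its limma adjusted p was 0.0401, and it did not pass without IL-18 replicate 1, 2 or 3 (adjusted p 0.103, 0.0901 and 0.0723) or without unstimulated replicate 1 or 3 (0.126 and 0.0758), while without unstimulated replicate 2 it was 0.0064. The change was 0.20 without unstimulated replicate 1 and 0.43 without unstimulated replicate 2, and between 0.31 and 0.34 without any other array. The 5 that did not pass ran from -0.04 for Socs7 to 0.13 for Socs5, with Socs6 at 0.11. Socs2 and Socs3 are themselves genes that STAT factors induce, and both encode inhibitors of cytokine signals. Socs2 changed by 0.05 (95% interval -0.19 to 0.28) and Socs3 by 0.03 (-0.21 to 0.26). The 2 probe sets of Socs2 stood at -0.10 and 0.20 and those of Socs3 at -0.13 and 0.19, none of which passed.

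The SOCS box recruits a ubiquitin ligase built on Cullin 5, and its partner genes were in a list of other regulators of the pathway. Of 20 listed, 18 were measured, and 4 rose, 4 fell and 10 did not pass (median -0.02). The shares of 22.2% higher and 22.2% lower were near those of all genes, 19.7% and 16.7%. The 4 that rose were the genes of that ligase: the scaffold Cul5 by 0.71 ± 0.10, the adaptors Elob by 0.59 ± 0.08 and Eloc by 0.42 ± 0.09, and the RING subunit Rnf7 by 0.53 ± 0.17. These subunits serve many other substrates, and their grouping was seen after the values were known. Rnf7 did not pass without IL-18 replicate 2 (0.34, limma adjusted p 0.114) or unstimulated replicate 1 or 3 (adjusted p 0.142 and 0.0769), nor with a robust variance (0.0585). The 4 that fell were Ptprc, the phosphatase CD45, with -0.66, the adaptor Sh2b2 with -0.64, and Cbl and Pdlim2, a ubiquitin ligase for receptors and one for STAT4, with -0.54 and -0.43.

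Promoter sequences of the inhibitors and of the IRF genes are shown because STAT and IRF factors act through short motifs there. RefSeq windows (GRCm38.p6, 250 bases before to 50 after each annotated start) were found for 31 of the 38 genes, 39 windows in all. The STAT motif TTCNNNGAA, which reads the same on both strands, was in 5 of the 39 windows when the 250 bases before the start were searched, and in 7.02% of 32851 windows of all genes. The IRF motif GAAANNGAAA, searched on both strands, was in 4 of the 39 and in 2.98% of all windows. With the whole 300 bases, a search added after the first result was seen, the STAT count was 6 (8.3% of all windows) and the IRF count 4 (3.44%). The added match is in Cish, where the motif stands a pair of times directly after the annotated start. A match is a description of the letters and not a measured site. The stretches below run 5′ to 3′ along each gene's strand, with matches in capitals. For Socs1 the capitals are a pair of overlapping IRF motifs, and for the other genes they are STAT motifs.
Cish, chr9:107296655-107296684, plus strand, bases -4 to 26 from the start: agttTTCCTGGAAagTTCTTGGAAatctgt
Socs1, chr16:10785537-10785656, minus strand, bases -120 to -1: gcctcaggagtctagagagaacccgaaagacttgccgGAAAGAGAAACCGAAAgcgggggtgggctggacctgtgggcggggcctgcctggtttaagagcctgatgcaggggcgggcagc
Socs3, chr11:117969447-117969566, minus strand, bases -200 to -81: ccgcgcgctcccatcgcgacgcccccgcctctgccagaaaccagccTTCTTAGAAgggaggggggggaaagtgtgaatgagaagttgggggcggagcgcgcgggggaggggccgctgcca
Irf1, chr11:53769894-53770013, plus strand, bases -120 to -1: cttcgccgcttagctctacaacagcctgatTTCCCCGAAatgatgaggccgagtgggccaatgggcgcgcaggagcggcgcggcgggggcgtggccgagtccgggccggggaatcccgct
Irf8, chr8:120736158-120736277, plus strand, bases -200 to -81: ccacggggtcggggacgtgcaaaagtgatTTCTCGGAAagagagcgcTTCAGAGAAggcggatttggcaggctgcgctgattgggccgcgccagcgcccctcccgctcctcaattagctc

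These 4 genes with a STAT match did not move alike: Cish rose, Irf1 and Irf8 fell, and Socs3 did not pass. The remaining matches were a STAT motif in Irf2bp1, both motifs in Irf2, and IRF motifs in Stat2 and Stat4. No window of Pim2, Jak2 or Stat5a, which rose, held either motif, which says only that these letters are not in those 300 bases.

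**Figure D2:**
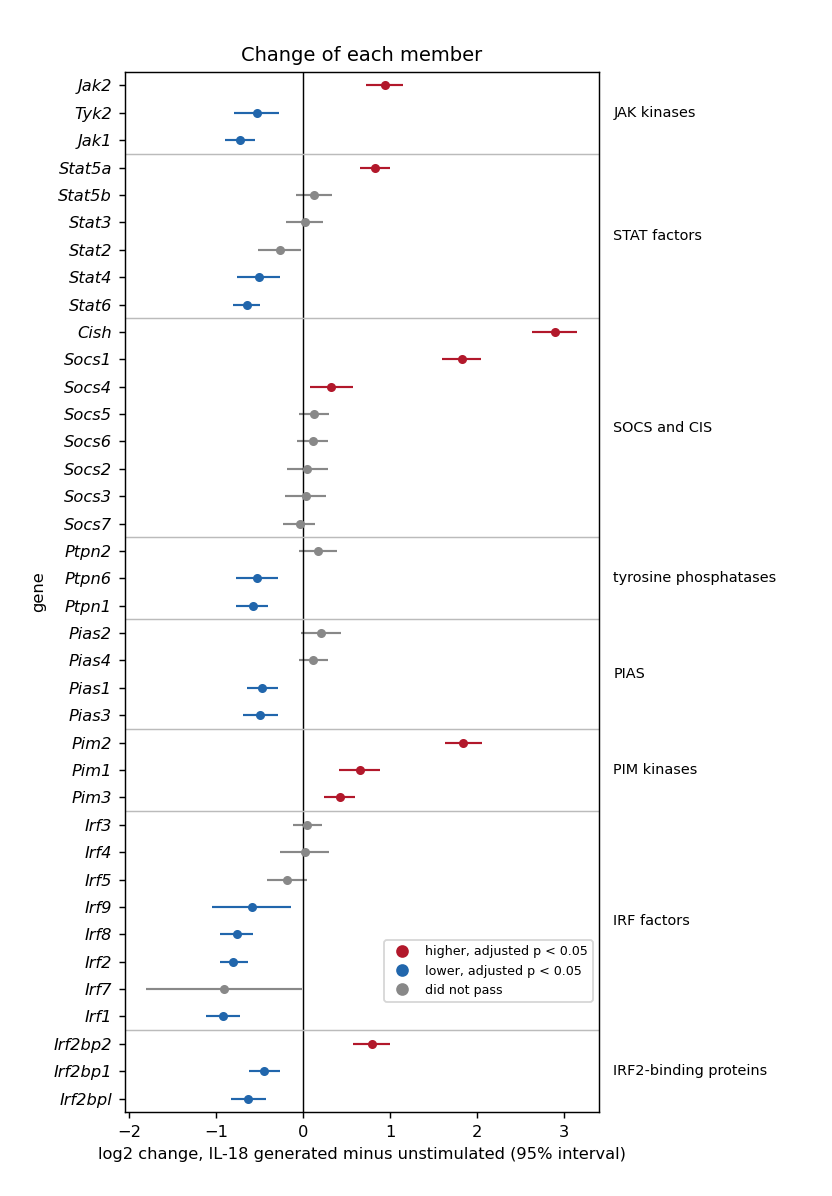
Log2 change of each of the 38 genes, IL-18 generated minus unstimulated (points, n = 3 arrays per group), with its 95% interval (bars), by family and coloured by the limma call. Cish, Socs1 and Pim2 lie beyond 1, all 3 PIM kinases are higher, and no IRF factor is.

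Of the 3 tyrosine phosphatase genes, 2 fell (66.7%), where 16.7% of all genes fell. Ptpn1 (PTP1B), which acts on JAK2 and TYK2, stood at -0.21, -0.21 and -0.29 on the IL-18 arrays and at 0.21, 0.37 and 0.46 on the unstimulated arrays, a change of -0.58 ± 0.09 (limma adjusted p 0.000304). Ptpn6 (SHP-1), which NK cells use downstream of inhibitory receptors, fell with -0.53 ± 0.11. Myeloid cells express Ptpn6 as well, and the part of their markers' decrease (monocyte median -3.14) was not tested. Ptpn2 (TC-PTP), which acts on JAK1 and STAT5, changed by 0.17 with a 95% interval of -0.05 to 0.39. Ptpn2 passed without unstimulated replicate 2 (0.27, limma adjusted p 0.0238), which at 0.11 stood level with the IL-18 arrays at 0.00, 0.11 and 0.13.

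The PIAS genes, which encode SUMO ligases, split into pairs: 50% fell, where 16.7% of all genes did, and the others did not pass. Pias3 stood at -0.29, -0.24 and -0.16 on the IL-18 arrays and at 0.20, 0.43 and 0.16 on the unstimulated arrays, and fell with -0.49 ± 0.09. Pias1, which also restrains STAT factors, fell with -0.47 ± 0.08 and had IL-18 arrays within 0.04 of each other. Pias2 and Pias4 changed by 0.20 (95% interval -0.02 to 0.43) and 0.11 (-0.05 to 0.28) and did not pass. The groups of Pias4 did not overlap, although its change did not pass.

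All 3 PIM kinases rose (19.7% of all genes did). They are serine/threonine kinases with no need for activating phosphorylation, so their activity follows their amount, and they support survival, translation and growth. Pim2 stood at 0.97, 0.80 and 0.97 on the IL-18 arrays and at -0.88, -1.09 and -0.80 on the unstimulated arrays. The change of 1.84 ± 0.09 is 3.58-fold (limma adjusted p 2.47e-07), and the groups were far apart. Pim1 rose by 0.65 ± 0.10, with IL-18 replicate 2 at 0.16 below replicates 1 and 3 at 0.54 and 0.47. Pim3 rose by 0.42 ± 0.08, from values between -0.27 and -0.12 to values between 0.12 and 0.30.

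PIM and CIS genes are also known responses to IL-2 and STAT5, and the list of such genes moved mostly upward. Of 20 genes, all measured, 12 rose and 3 fell, while 5 did not pass. The median change was 0.67. This makes 60% higher and 15% lower, where 19.7% of all genes rose and 16.7% fell. The list shares Cish, Socs2, Socs3 and Pim1 with the 38 genes, and of the other 16, 10 rose and 3 fell (median 0.76). Il2ra and the lymphotoxin gene Lta (2.98 ± 0.17) rose most, and the cyclin gene Ccnd3 (-1.17 ± 0.08) and the granzyme B gene Gzmb (-0.68 ± 0.14) fell most. IL-2 was in the culture medium of the IL-18 generated cells. Its part was not tested and cannot be told apart from that of IL-18, culture or sort gate.

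**Figure D3:**
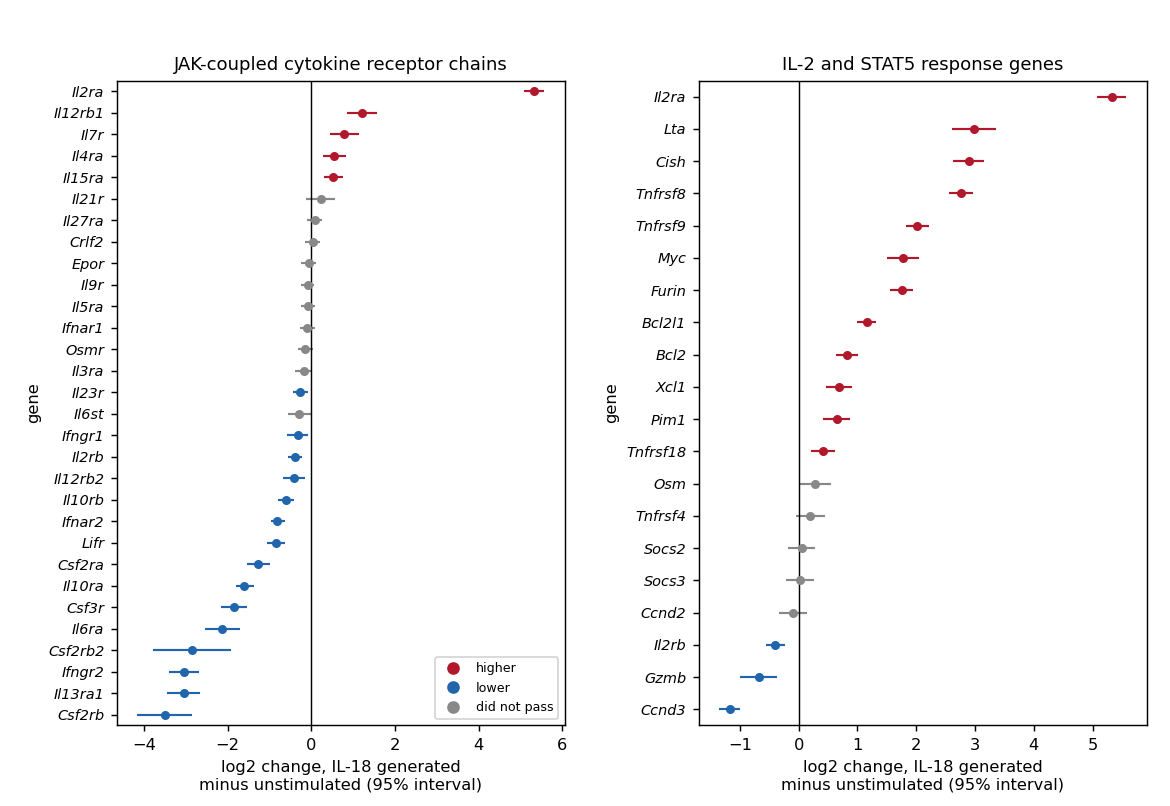
Log2 change with its 95% interval (n = 3 arrays per group) of the measured chains of receptors that use JAKs (left) and of genes that respond to IL-2 and STAT5 (right), coloured by the limma call. Of the 30 receptor chains 5 rose and 15 fell, and of the 20 response genes 12 rose and 3 fell; Il2ra is in both lists.

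No IRF gene rose: of 8 measured, 4 fell, while 4 did not pass (median change -0.68). This makes 50% lower, where 16.7% of all genes fell and 19.7% rose. Irf1, an activator of interferon and of IL-15 genes that supports NK cell development, stood at -0.51, -0.63 and -0.35 on the IL-18 arrays and at 0.43, 0.49 and 0.35 on the unstimulated arrays. It fell with -0.92 ± 0.09, or 1.89-fold lower (limma adjusted p 1.86e-05), and its 2 probe sets fell with -1.22 and -0.62. Irf2, which competes with IRF1 for the same motif and is needed for NK cell maturation, fell with -0.80 ± 0.07. Its values lay between -0.45 and -0.35 on the IL-18 arrays and between 0.35 and 0.47 on the unstimulated arrays.

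Irf8, a factor of monocyte and dendritic cell development that NK cells also use, fell with -0.76 ± 0.09. It stood at -0.52, -0.28 and -0.44 against 0.34, 0.43 and 0.28. Monocytes and B cells also express it, and markers of monocytes (median -3.14) and of B cells (median -0.42) fell in the same arrays. The part of these cells was not tested. Irf5, also a gene of myeloid and B cells, changed by -0.18 (95% interval -0.41 to 0.04) and did not pass. Irf3, the sensor-activated factor for interferon beta, changed by 0.05 (-0.12 to 0.22), and Irf4, a factor of activated lymphocytes, by 0.02 (-0.27 to 0.30).

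Irf7, Irf9 and Stat2 are all induced by interferon. Irf7 and Irf9 had the widest ranges of the 38 genes over the IL-18 arrays (2.16 and 1.02), and the 3 genes are given by array for this reason, seen in the values. Stat2 had a range of 0.36, level with Socs2 and below Pim1 and Ptpn6 at 0.38 each and Stat4 at 0.37. Irf7, the amplifier of type I interferon production, stood at -0.96, -1.88 and 0.28 in replicates 1, 2 and 3 of the IL-18 generated cells, a range of 2.16 that only 5 of all genes tested exceeded. The unstimulated arrays lay between -0.06 and 0.16. IL-18 replicate 3 was therefore above all unstimulated arrays and the other IL-18 arrays were far below them. The change of -0.91 ± 0.40 did not pass (limma adjusted p 0.106). Leaving out IL-18 replicate 3 gave -1.47 (adjusted p 0.000426), and leaving out IL-18 replicate 2 gave -0.39 (adjusted p 0.324). With array weights it was 0.0484, and over 14 alternatives it ran from 0.000426 to 0.846.

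Irf9 followed the same order, at -0.55, -0.99 and 0.03 on the IL-18 arrays against -0.03, 0.07 and 0.23. The change of -0.59 ± 0.20 passed narrowly (limma adjusted p 0.0442) although the groups overlapped. It passed in 5 of 14 alternatives, and its adjusted p without a single array was 0.0956, 0.134 and 0.000748 for IL-18 replicates 1, 2 and 3, and 0.0783, 0.0752 and 0.138 for unstimulated replicates 1, 2 and 3. The change was -0.35 without IL-18 replicate 2 and -0.86 without IL-18 replicate 3, and between -0.65 and -0.52 without any other array. With quantile normalization it was 0.0662 and with array medians set to 0 it was 0.0653. Stat2 stood at -0.19, -0.31 and 0.05 against -0.05, 0.27 and 0.16, and its change of -0.27 ± 0.11 did not pass (limma adjusted p 0.0826). Stat2 passed without IL-18 replicate 3 (-0.37, adjusted p 0.0257) and without unstimulated replicate 1 (-0.36, 0.0434).

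Genes that interferon induces were also listed. Of 32 listed, 28 were measured, and 4 rose, 9 fell and 15 did not pass (median -0.18). This makes 14.3% higher and 32.1% lower, where 19.7% of all genes rose and 16.7% fell. The mean of the list was -0.12, -0.33 and 0.30 in IL-18 replicates 1, 2 and 3, and -0.01, 0.02 and 0.08 in the unstimulated arrays. IL-18 replicate 3 was the highest and replicate 2 the lowest of the IL-18 arrays for 18 of the 28 genes (64.3%), where 18.4% of all genes tested had that order. The order was taken from Irf7 and Irf9 on these same arrays, so the count is a description and not a test. Usp18, an inhibitor of the type I interferon receptor, stood at -0.03, -0.84 and 1.51 on the IL-18 arrays and between -0.15 and 0.32 on the unstimulated arrays. The genes that fell most were Oasl2 with -1.01 ± 0.11 and Ifit2 with -0.92 ± 0.15, both antiviral effectors. The 4 that rose were Cxcl10, a chemokine gene, by 2.54 ± 0.31, Isg20, an RNA exonuclease gene, by 1.12 ± 0.09, Bst2 by 0.52 ± 0.10 and the peptide transporter gene Tap1 by 0.34 ± 0.09. Tap1 did not pass without IL-18 replicate 3 or unstimulated replicate 1 (limma adjusted p 0.0543 and 0.0508). Which difference between the preparations accompanied this spread was not tested.

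**Figure D4:**
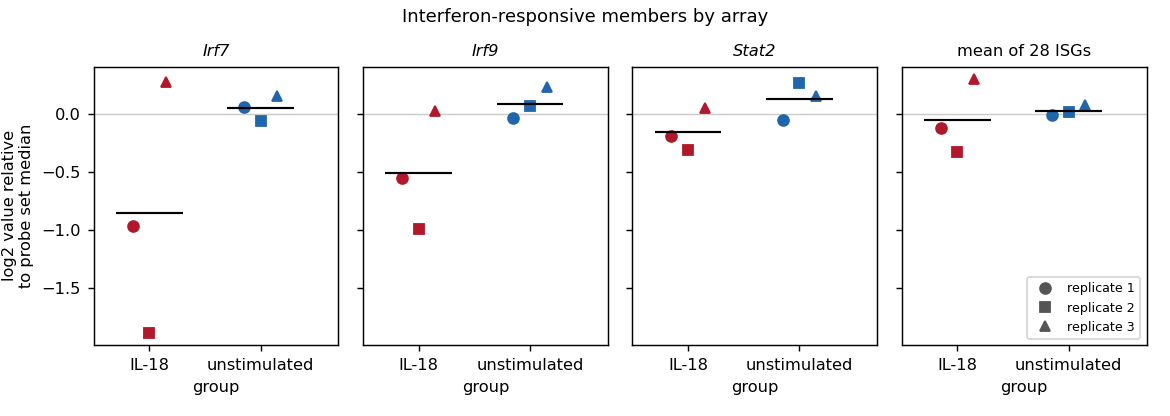
Log2 value relative to the probe set's median of Irf7, Irf9, Stat2 and the mean of 28 interferon-stimulated genes (ISGs) on each array (symbols by replicate, line at the mean of the 3 arrays). IL-18 replicate 3 is the highest and replicate 2 the lowest of the IL-18 arrays in all 4 panels, an order picked from these values. For Stat2 the unstimulated arrays spread over 0.32, nearly as far as the IL-18 arrays (0.36).

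The IRF2-binding proteins all passed, in both directions. Irf2bp2, a corepressor that also binds NFAT1, stood at 0.48, 0.31 and 0.27 on the IL-18 arrays and at -0.27, -0.49 and -0.56 on the unstimulated arrays, and rose by 0.79 ± 0.10, or 1.73-fold (limma adjusted p 9.54e-05). Irf2bpl and Irf2bp1 fell, with -0.63 ± 0.09 and -0.45 ± 0.08. The groups overlapped for none of the 3. Over all genes, 36.4% were called and 48.6% had groups that did not overlap.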

How the data were processed

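RNA of sorted NK cells from 6 preparations (3 IL-18 generated, 3 unstimulated) was labelled with biotin and hybridised to 1-colour Affymetrix arrays, per the labels' protocols. The authors' deposited value table covers 28815 probe sets. Its values (-4.43 to 5.48) were read as log2 from their range, since the authors' log base is unknown here, and every probe set's median over the arrays was 0. The sources used here do not give how the authors summarised and normalized the arrays. Array medians over genes lay between -0.025 and 0.039, and no further normalization was applied.

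Gene names came from the platform's annotation table: 21788 probe sets had 1 symbol and were used, 1597 had several and 5430 were not listed. A gene was the mean of its probe sets (998 genes had several), giving 19943 genes. All 44 probe sets of the 38 genes were found by gene identifier in the reference gene table, 0 of them under another symbol. The fit used limma 3.58.1 under R 4.3.3 (lmFit, eBayes, no covariate, all 6 arrays) with Benjamini-Hochberg adjustment, and was tested on simulated data. There 67 of 19943 genes were given a change of 0.5, 67 a change of 1.0 and 66 a change of 2.0. The fit called 52.2%, 97.0% and 100.0% of them. In that setting a change near 0.5 could go uncalled with 3 arrays per group. On the 6 arrays 36.4% of all genes were called, and the share recovered with that many changed genes was not tested. P-values measure only the spread between these arrays. Promoter windows are RefSeq's. Tables and figures were made in Python 3.11.15 with pandas 2.3.3, numpy 2.4.6 and matplotlib 3.10.9.

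All 38 genes are named. Members that passed with a change of at least 1 are given by array, as is the leading gene of any other family. Each further list is shown by up to 2 genes per direction, those that passed with the greatest change. Other genes named, and other members given by array, were picked after their values were seen. The members and the lists were chosen with earlier results of these data known. Lists were counted without a test of the list. Alternatives were robust variance, a variance trend, quantile normalization, array medians set to 0, array weights, probe sets as features, genes with 1 probe set, a test against a change of 0.5, a replicate block and omission of single arrays; a motif search over whole promoter windows was added after the data were seen.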

Additional observations from a re-analysis of the deposited data

How the results depend on the processing

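Of the 23 genes that passed, 21 kept their call and direction in each of the 14 alternatives (13 for Irf1, which has several probe sets) other than the test against a change of 0.5; the exceptions were Irf9 and Socs4. In that test, which calls fewer genes by construction, 5 members were higher and 2 lower, against 9 and 14, and over all genes 1093 were higher and 864 lower, against 3935 and 3332. Leaving out 1 array gave 8 to 10 members higher and 13 to 16 lower, and 3384 to 4178 genes higher and 2651 to 4408 lower. Correlations of the deviations of same-numbered arrays from their group means were 0.238, 0.007 and -0.020. Those of arrays with unlike numbers ran from -0.293 to 0.248. With 3 arrays per group these values cannot settle whether the numbers mark a pairing. With the replicate block 9 members were higher and 15 lower, and 3949 and 3330 of all genes; Irf7 had an adjusted p of 0.0118 under it, against 0.106. Of the 15 members that did not pass, 7 turned sign somewhere, and the cause was not tested. With array weights the changes were -0.07 for Irf4, 0.00 for Socs2, -0.03 for Socs3, -0.01 for Stat3, -0.14 for Usp18 and -0.03 for Ifit1. Read from the probe set with the smallest change they were -0.10 for Socs2, -0.13 for Socs3 and -0.03 for Socs6. Leaving out 1 array gave 0.00 to 0.08 for Irf3, -0.14 to 0.10 for Irf4, -0.04 to 0.13 for Socs2, -0.09 to 0.12 for Socs3, -0.10 to 0.00 for Socs7, -0.08 to 0.07 for Stat3, -0.50 to 0.67 for Usp18 and -0.35 to 0.53 for Ifit1. The planned filter on dim genes and the choice of the brightest probe set were not run, because centred values hold no level. The number of arrays limits the precision.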

Other observations

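Transcription factors that bind DNA beside IRFs or share their targets mostly fell. Of 13 listed and measured, 9 fell, 2 rose and 2 did not pass (median change -0.69). This makes 69.2% lower and 15.4% higher, where 16.7% of all genes fell and 19.7% rose. Batf and Batf3, AP-1 factors that pair with JUN and recruit IRF4 or IRF8, were the 2 that rose, by 1.13 ± 0.08 and 0.93 ± 0.17. Batf stood between 0.48 and 0.66 on the IL-18 arrays and between -0.61 and -0.48 on the unstimulated arrays, while Irf4 changed by 0.02. Spi1 (PU.1), a myeloid and B cell factor that binds with IRF8, fell with -3.91 ± 0.14 beside the monocyte markers (median -3.14), and their part was not tested. Fos had the next largest decrease, -2.29 ± 0.51, with unstimulated arrays that disagreed: 2.75, 0.24 and 2.44 in replicates 1, 2 and 3, against -0.24, -0.65 and -0.55 on the IL-18 arrays. Its limma adjusted p was 0.00467, and Fos did not pass with a robust variance (0.0914) or a variance trend (0.169).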
